A study of Homo sapiens with 21 samples.

Results

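The genes described here encode the cohesin ring and its regulators, SMC1A, SMC3, RAD21, STAG1, STAG2, NIPBL and WAPL, together with the DNA-binding proteins CTCF and ZNF143. These 9 genes, of 19974 protein-coding genes, were chosen by name. For each gene, every region with its midpoint in the gene body or within 50 kb on either side (hg38) was taken as a member region. The 9 windows span 1994 kb together and held 1094 of the 1120474 regions in 15 lists.

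The study set human melanoma cell lines side by side after silencing or overexpression of HOXD13, a homeobox transcription factor known from limb patterning. Tagged HOXD13 was mapped through an HA epitope in A375 cells (A375-HOXD13-HA), and acetylation of histone H3 at lysine 27 (K27ac), which marks active promoters and enhancers, was mapped in A375 cells with the hairpins shH2 and shH3 and in 2 replicates with shNTC. ATAC-seq, which maps open chromatin, and K27ac were also measured in 501mel, SKMEL-5, SKMEL-147 and A375-GFP, and CTCF in 501mel and SKMEL-5. The labels give no target for shH2 or shH3, do not say which cells received the doxycycline named in the growth protocol, and do not say whether the shNTC replicates came from separate cultures. Read counts are not part of the lists, which leaves sequencing depth unknown, and apart from shNTC K27ac each condition is a single library. With 2 hairpin libraries against 2 shNTC libraries, an exact permutation test cannot give a two-sided p below 0.333. That test takes shH2 and shH3, each a single library, as replicates of a common condition, so its p measures no spread within a hairpin. The single libraries of the other conditions give no test. The 95% Wilson intervals on shares cover counting error only.

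Cohesin is a ring that holds chromatin strands together and extrudes loops of DNA. SMC1A and SMC3 form the arms of the ring, RAD21 closes it, and STAG1 or STAG2 binds RAD21 as the remaining core subunit. NIPBL loads cohesin and drives extrusion, WAPL releases it, and CTCF stops it at bound sites, which become loop anchors. ZNF143 binds a promoter motif and has been studied as a further factor at promoter-anchored loops.

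The lists differ in length, and the 2 hairpin K27ac lists are shorter than the shNTC lists, with 43634 regions in shH2 and 51838 in shH3, against 85977 and 80242 in the shNTC replicates. The remaining lists held 29176 (HOXD13-HA) to 163102 (SKMEL-147 ATAC) regions. Of 6 melanocytic genes (MITF, SOX10, TYR, PMEL, MLANA and DCT), all 6 carried K27ac in 501mel and SKMEL-5, 4 in A375-GFP and 2 in SKMEL-147. Of 5 undifferentiated genes (AXL, EGFR, NGFR, WNT5A and SOX9), 0 carried K27ac in 501mel, 2 in SKMEL-5, 3 in SKMEL-147 and 4 in A375-GFP. ATAC regions lay at all 6 melanocytic genes in 501mel, SKMEL-147 and A375-GFP, and at 5 in SKMEL-5. They lay at all 5 undifferentiated genes in SKMEL-5, SKMEL-147 and A375-GFP, and at 4 in 501mel. K27ac of A375-GFP also lay at the leukocyte genes CD3E and PTPRC and the endothelial genes PECAM1 and CDH5. It lay at KRT14 but not KRT5 of the keratinocyte genes, and not at the fibroblast genes COL1A1 and DCN. Of these genes PTPRC, DCN and PECAM1 carried K27ac in SKMEL-5, PTPRC and CDH5 in SKMEL-147, and none in 501mel. Per 100 kb, the member windows held 1.70 HOXD13-HA regions, against 1.09 in the windows of all protein-coding genes. By count the A375-GFP K27ac list showed a similar offset, with 9.33 regions per 100 kb in the member windows, against 6.75 over all genes. By covered length it showed none, with 4.96% of the member windows covered, against 5.02% over all gene windows. The CTCF window held 54 of its 186 member regions. Both hairpin lists lay slightly under the background, with 1.81 (shH2) and 2.06 (shH3), against 1.94 and 2.31 over all genes, whereas the shNTC lists lay above it, with 6.12 and 5.47, against 3.93 and 3.66.

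**Figure D1:**
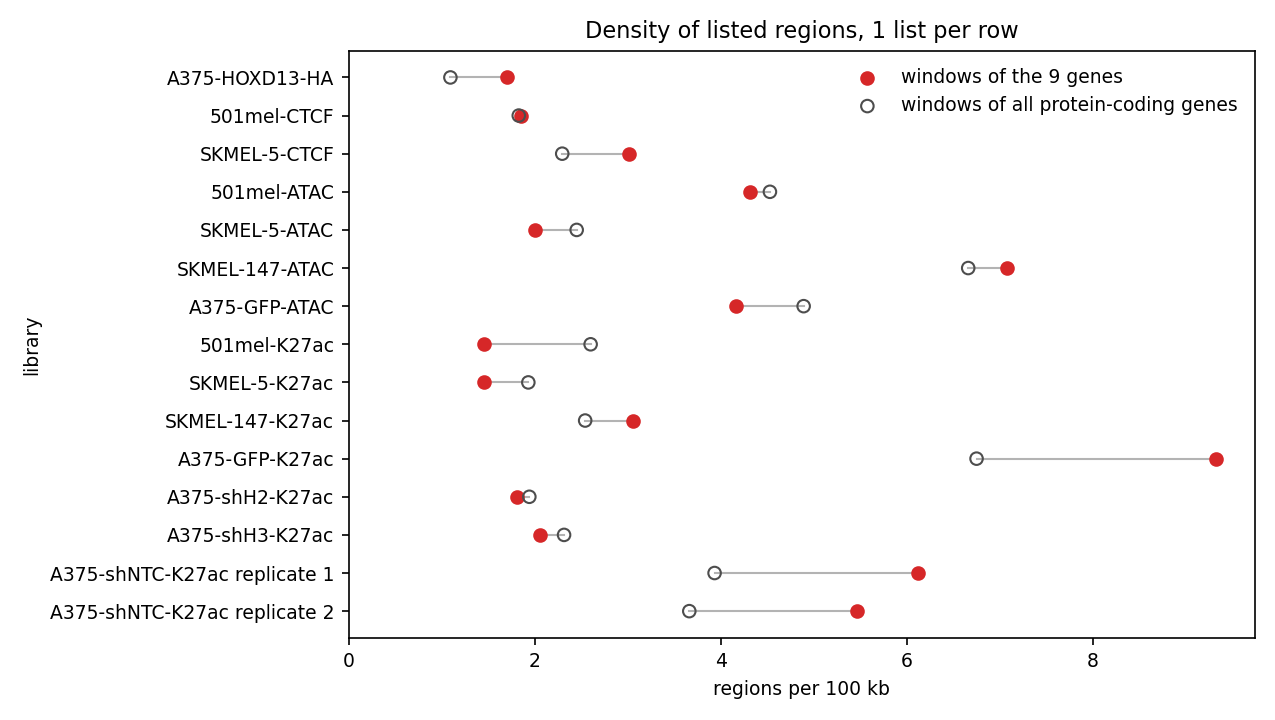
Regions per 100 kb (x axis) in the windows of the 9 genes (filled) and of all protein-coding genes (open), with 1 row per list. The HOXD13-HA list lies at 1.70 against 1.09, and the hairpin K27ac lists lie near their background while both shNTC lists lie above it.

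Promoter sequences are shown first, followed by the results at gene starts. The 250 bases before the RefSeq start (GRCh38.p14) are printed 5′ to 3′ along the gene for STAG1, whose start carried CTCF and HOXD13-HA, for WAPL, whose start carried the weakest CTCF and K27ac of the 9 in SKMEL-5, and for CTCF itself. The STAG1 promoter is chr3:136752379-136752628, the WAPL promoter chr10:86521793-86522042 and the CTCF promoter chr16:67562276-67562525. STAG1 and WAPL lie on the minus strand and CTCF on the plus strand. Capitals mark a match to a CTCF core (CCA, any 2 bases, AG, any 2 bases and GGC) or to a ZNF143 core (ACTACAA, any base and TCC), searched on both strands. No match overlapped another in these genes.
STAG1: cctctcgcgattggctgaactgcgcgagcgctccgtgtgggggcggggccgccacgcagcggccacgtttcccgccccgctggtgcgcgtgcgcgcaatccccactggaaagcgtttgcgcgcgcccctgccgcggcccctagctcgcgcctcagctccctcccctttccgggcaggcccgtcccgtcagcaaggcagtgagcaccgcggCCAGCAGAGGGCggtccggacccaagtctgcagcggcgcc
STAG1, site after the start: tggaaaatgCCACCAGATGGCgggttagga
WAPL: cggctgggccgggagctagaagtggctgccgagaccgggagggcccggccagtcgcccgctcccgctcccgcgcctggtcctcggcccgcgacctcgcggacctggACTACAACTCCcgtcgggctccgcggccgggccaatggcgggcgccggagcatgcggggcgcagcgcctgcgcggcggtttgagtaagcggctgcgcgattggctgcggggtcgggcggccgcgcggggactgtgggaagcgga
CTCF: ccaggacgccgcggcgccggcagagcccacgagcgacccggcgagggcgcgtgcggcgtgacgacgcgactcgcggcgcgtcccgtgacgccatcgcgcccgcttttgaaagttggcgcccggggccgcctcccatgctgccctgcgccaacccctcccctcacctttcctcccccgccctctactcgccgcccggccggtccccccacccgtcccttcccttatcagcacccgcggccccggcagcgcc

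Promoter sequences were at hand for 8 of the 9 genes, RAD21 being the exception, in windows of 250 bases before to 50 bases after each start. STAG1 was the only one of the 8 with the CTCF core, and held it at 40 bases before the start and again at 19 bases after it. Of all 34961 RefSeq promoters 2.41% held that core, with 5.07% of the 5606 promoters that CTCF regions of both lines overlapped and 1.79% of the 26090 that neither overlapped. Only WAPL among the 8 held the ZNF143 core, 144 bases before its start, against 0.99% of all promoters. The HOXD13 core CAATAAA, present in 4.0% of all promoters, was in none of the 8. These matches describe letters in the window, and absence of a match says nothing about a factor.

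All 9 gene starts were open in every line: each had an ATAC region within 1 kb of the start in 501mel, SKMEL-5, SKMEL-147 and A375-GFP, against 54.8% of 15814 gene starts. The strongest start region of a gene had an authors' fold enrichment of 7.33 (STAG2) to 15.7 (RAD21) in 501mel. In SKMEL-5 these folds ran between 4.88 (STAG2) and 12.6 (STAG1), in SKMEL-147 between 9.30 (STAG2) and 22.5 (WAPL), and in A375-GFP between 6.37 (STAG2) and 13.1 (WAPL). STAG2 was the lowest of the 9 in each of these 4 lists. Folds are the authors' values and rank regions only within a list.

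K27ac at the starts differed more between lines. A K27ac region lay within 1 kb of all 9 starts in A375-GFP (51.7% of all gene starts) and SKMEL-5 (46.3%). In SKMEL-147 it did so for 7 starts (19.1% of all gene starts), leaving out STAG2 and WAPL, and in 501mel for 5 (21.0%), leaving out CTCF, SMC1A, NIPBL and WAPL. Among the 8665 starts that were open in all 4 lines, K27ac was listed at 77.8% in A375-GFP, 75.8% in SKMEL-5, 29.2% in SKMEL-147 and 32.8% in 501mel, so open starts lacking K27ac in 501mel and SKMEL-147 were common. SMC3, RAD21, STAG1 and ZNF143 were the members with K27ac at the start in all 4 lines and in all 4 libraries of the silencing series, and 9.49% of gene starts had it in all 4 lines. STAG2 lacked it in SKMEL-147 alone. STAG1 ranked highest at its start in SKMEL-5 (fold 27.5) and SKMEL-147 (8.96), and ZNF143 ranked highest in 501mel (6.77). In A375-GFP the highest fold stood at SMC3 (32.9), and STAG1 (6.79) was next to the lowest, WAPL (6.17).

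**Figure D2:**
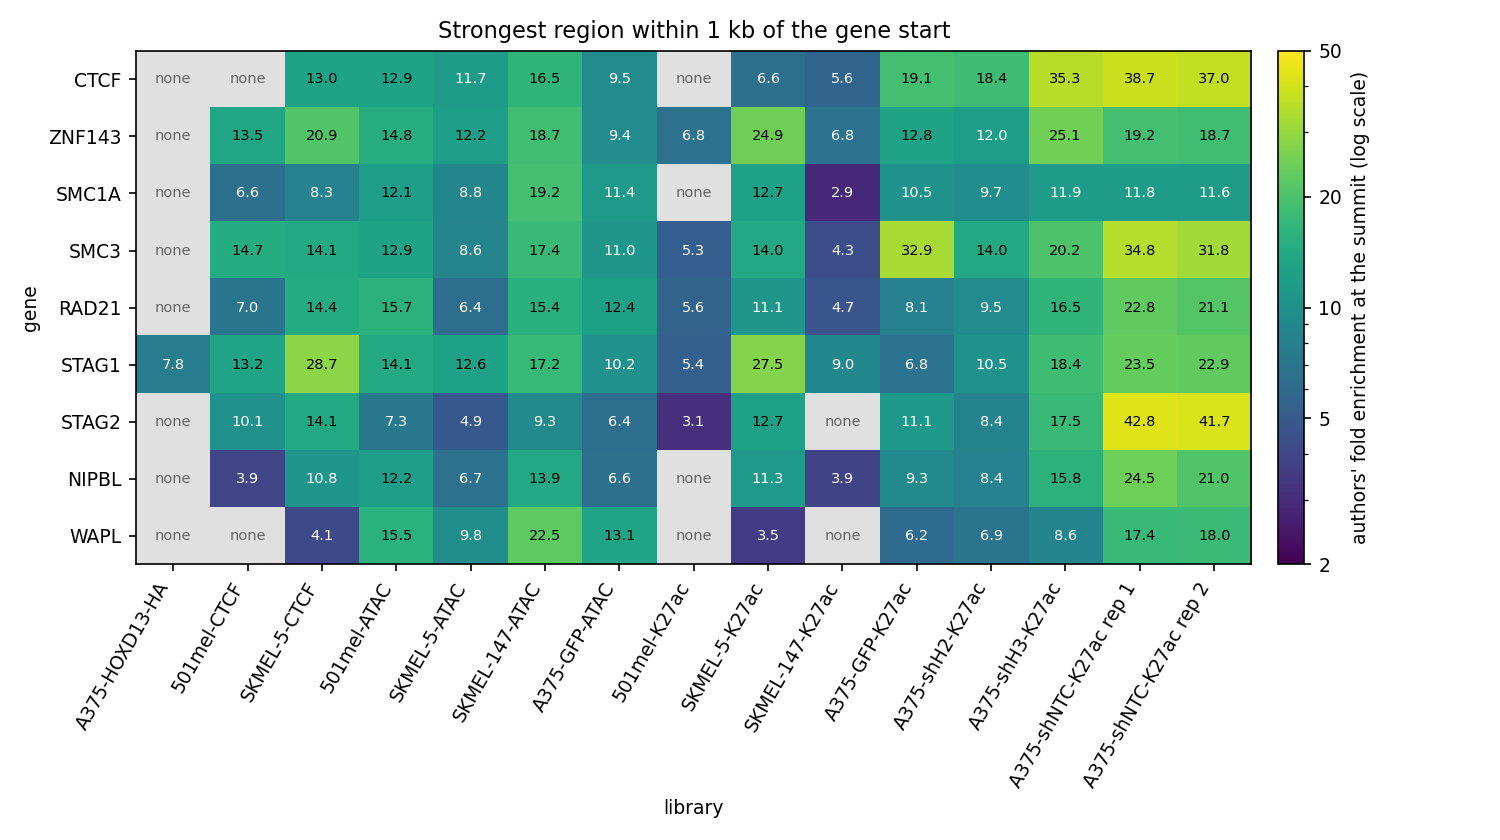
Authors' fold enrichment (colour, log scale, and number) of the strongest region within 1 kb of the start of each of the 9 genes (rows) in the 15 lists (columns), with grey where none was listed. Colours compare genes within a column only; all 9 starts are open in 4 lines, and the only HOXD13-HA region at a start is that of STAG1 (7.84).

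CTCF lay at most of these starts. In SKMEL-5 all 9 starts had a CTCF region within 1 kb (38.1% of all gene starts), and in 501mel 7 did (32.7%), those of CTCF and WAPL being the exceptions. Among starts open in all 4 lines these shares were 61.2% in SKMEL-5 and 54.3% in 501mel. At STAG1 the region chr3:136752215-136753131, joined over both lines, had a fold of 28.7 in SKMEL-5 and 13.2 in 501mel, and it spans both CTCF cores printed for that gene. At the CTCF start itself the region chr16:67562102-67562546 reached a fold of 13.0 in SKMEL-5 and was absent from the 501mel list. The WAPL region chr10:86521067-86521287 had the lowest fold of the 9 in SKMEL-5, at 4.14.

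Over the whole windows, CTCF regions joined across both lines came to 64 sites, of which 32 were listed in both 501mel and SKMEL-5 (a share between 38.1 and 61.9%), close to the 49.3% of all 60031 sites. Of the others 28 were in the longer SKMEL-5 list alone and 4 in 501mel alone. The CTCF window held 14 sites, 9 of them shared, though other genes lie there too (RIPOR1, CARMIL2, ACD, PARD6A, ENKD1, C16orf86 and GFOD2). Of its sites the strongest in both lines, chr16:67520744-67522237, with folds of 51.8 in SKMEL-5 and 26.8 in 501mel, lay in RIPOR1, 40.3 kb before the CTCF start.

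The ring and regulator genes differed in how far their CTCF sites were shared. SMC3 shared 5 of 6 sites, SMC1A 3 of 4, ZNF143 4 of 6 and STAG2 2 of 3, whereas STAG1 shared 3 of 8, NIPBL 4 of 10, RAD21 2 of 8 and WAPL 0 of 5. Within the SKMEL-5 list, member regions also found in 501mel had a median fold of 12.9, and those of SKMEL-5 alone one of 6.08, with 13.0 and 6.60 over the whole list. Sites of SKMEL-5 alone above that 12.9 lay at RAD21 (folds of 24.8, 19.1 and 13.0), SMC1A (18.0), WAPL (13.3) and CTCF (13.0). ATAC regions overlapped the strongest RAD21 sites of this kind, chr8:116912682-116913274 and chr8:116831087-116831962, in all 4 lines. At NIPBL the strongest of the 6 unshared sites had a fold of 6.36. These counts are too small for the order of the genes to be told apart.

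HOXD13-HA regions numbered 34 in the windows of 7 of the 9 genes, where 60.2% of protein-coding genes had at least 1. SMC1A and RAD21 had none, as did 39.8% of protein-coding genes. The folds ran between 2.18 and 11.3, with a median of 4.08, against a median of 3.93 over all 29176 regions. Of the 34, 7 had a −log10 q of at least 10, which is 20.6% of them and 23.7% of the whole list. In the A375-GFP cells 5 of the 34 places were open (14.7%, 6.45 to 30.1%), against 34.1% over the whole HOXD13-HA list. K27ac of A375-GFP overlapped 9 (26.5%, 14.6 to 43.1%, against 22.2%), and 23 had neither. A CTCF region of 501mel or SKMEL-5 overlapped 1 of the 34, against 6.84% of the whole list.

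STAG1 held 19 of the 34 regions, and 18 of these lay inside the gene, which at 416 kb is the longest of the 9. That is 3.68 regions per 100 kb of its window, against a median of 0.731 over all genes. Of all genes 97.6% had a lower density, as did 98.6% of the 771 genes with windows of at least 400 kb, whose median was 1.06. Without STAG1 the other member windows held 15 regions, or 1.01 per 100 kb, which is near the 1.09 of all gene windows. The median fold of the STAG1 regions was 4.31, against 3.93 over the whole list, and 2 of the 19 had a −log10 q of at least 10. Of the 19 places 2 were open in A375-GFP and 5 carried K27ac there.

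The strongest STAG1 region, chr3:136387161-136387530, had a fold of 9.40 and lay 365 kb into the gene, with neither an ATAC nor a K27ac region over it in A375-GFP. The region chr3:136751289-136751769, with a fold of 7.84 and a midpoint 0.849 kb after the start, was the only HOXD13-HA region within 1 kb of a member's start; 3.06% of gene starts had such a region. It was open and acetylated in A375-GFP, and it lay inside a K27ac region found with shH2, with shH3 and in each shNTC replicate.

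For the DNA-binding factors, the highest HOXD13-HA fold of all 9 windows stood 39.4 kb beyond the end of CTCF, at chr16:67678555-67678916, inside the neighbouring gene GFOD2. Its fold of 11.3 exceeded 98.8% of the list, and no ATAC or K27ac region of A375 overlapped it. The only ZNF143 region, chr11:9575111-9576006, with a fold of 7.78, lay 46.6 kb beyond that gene in WEE1 and overlapped K27ac in shH3, in A375-GFP and in both shNTC replicates, but not in shH2. It is also the 1 place where a CTCF region, of 501mel, was overlapped. For SMC3 the only region, chr10:110634809-110635216, had a fold of 8.66, lay 28.8 kb beyond the gene and was open in A375-GFP.

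STAG2, NIPBL and WAPL held weaker regions. STAG2 had 4 inside the gene, the strongest at chrX:124026413-124026729 with a fold of 4.84. NIPBL had 3 inside the gene, the strongest at chr5:37064365-37064696 with a fold of 3.85, and no ATAC or K27ac region of A375 overlapped any of them. Both WAPL regions lay beyond the gene, and the stronger, chr10:86421179-86421346, had a fold of 6.47. None of these regions lay within 1 kb of a member's start.

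**Figure D3:**
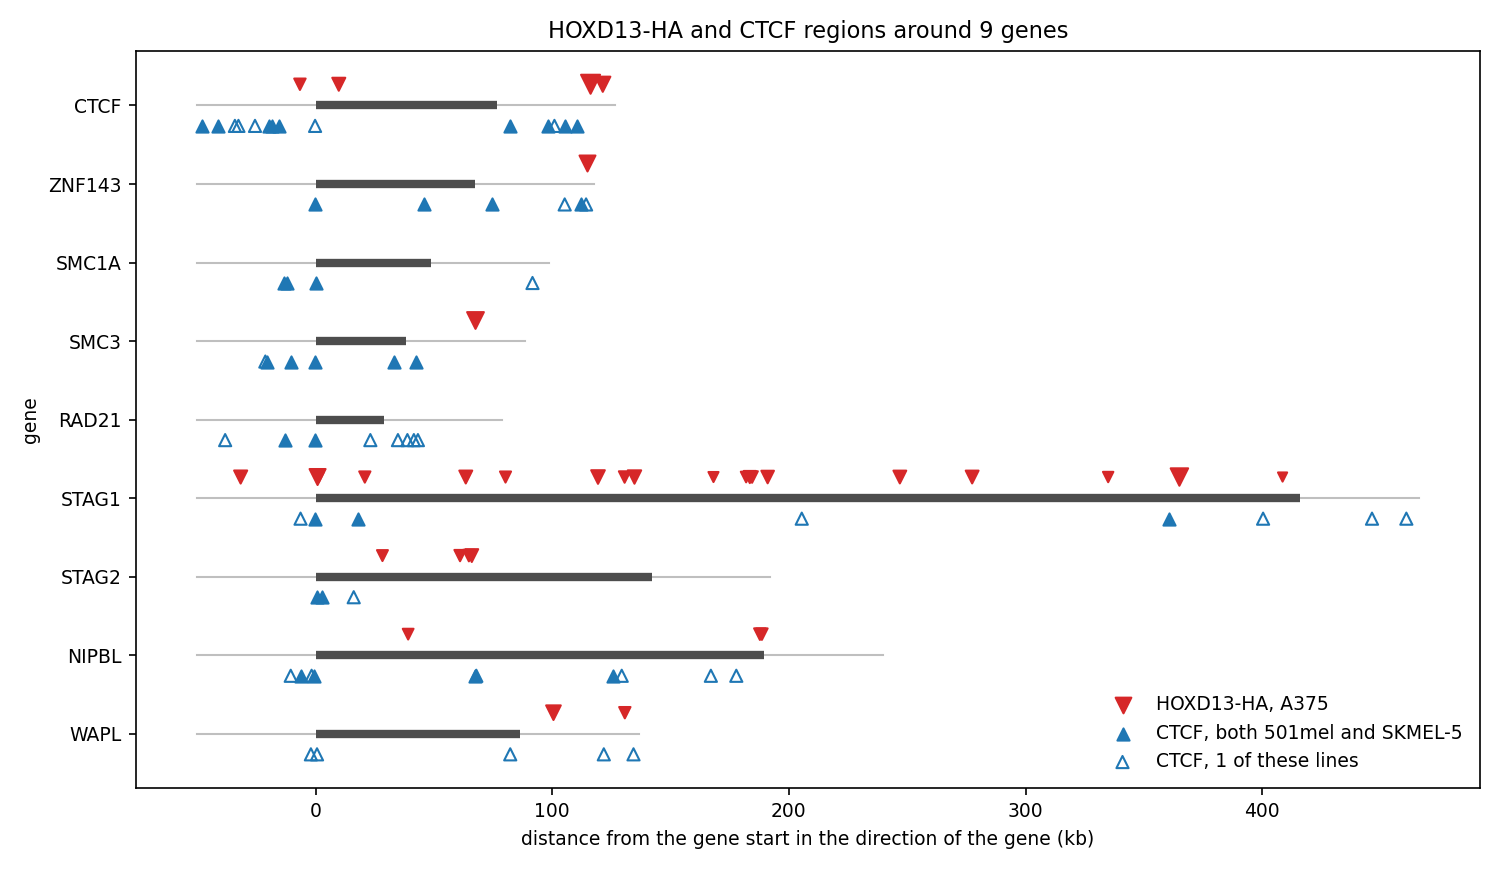
HOXD13-HA regions of A375 (red, size by fold) and CTCF sites (blue, filled where 501mel and SKMEL-5 share the site) by distance from the gene start in kb (x axis), with the gene body as a thick line and the 50-kb flanks as thin lines. STAG1 holds 19 of the 34 HOXD13-HA regions, while SMC1A and RAD21 hold none.

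In the silencing series K27ac covered less of every member window in both hairpin libraries than in both shNTC replicates. That holds for 9 of 9 genes, and for 94.9% of the 17563 genes with K27ac in both replicates. For each of the 9 the distance between the hairpin and shNTC libraries exceeded that between the shNTC replicates. How often this holds over all genes was not counted, so it does not set the 9 apart. The two-sided exact permutation p was 0.333 for each. Any full separation of these 4 libraries gives that value, the smallest they allow. For WAPL, the release factor, K27ac covered 0.501 kb in shH2 and 1.12 kb in shH3, against 8.37 and 8.39 kb in the shNTC replicates. The WAPL ratio of 0.0970 was the lowest of the 9, and 5.00% of genes had a lower ratio.

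At CTCF K27ac covered 5.72 kb in shH2 and 10.3 kb in shH3, against 25.3 and 26.2 kb with shNTC. STAG2 had 5.19 kb in shH2 and 5.46 kb in shH3, against 21.1 and 17.3 kb with shNTC. SMC3 had 2.26 kb in shH2 and 3.04 kb in shH3, against 10.8 and 9.10 kb with shNTC. The libraries of the hairpins lay well apart from both replicates at these 3 genes, with ratios of 0.311, 0.277 and 0.266.

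STAG1 had 5.65 kb in shH2 and 6.02 kb in shH3, against 16.3 and 13.5 kb with shNTC. NIPBL, the loader, had 2.06 kb in shH2 and 2.66 kb in shH3, against 7.89 and 6.64 kb with shNTC. Along with WAPL, CTCF, STAG2 and SMC3, these make 6 members in which both hairpin libraries covered at most 50% of each shNTC replicate, against 50.8% of genes, and the 9 members are too few to set apart from that share. At SMC1A, RAD21 and ZNF143 a hairpin library covered more than 50% of a shNTC replicate. Their ratios were 0.366, 0.466 and 0.474, and that of SMC1A lay under the 0.392 of STAG1. ZNF143 had 3.97 kb in shH2 and 7.51 kb in shH3, against 12.3 and 12.0 kb with shNTC.

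The median ratio of the 9 was 0.325, against 0.380 over genes and 0.426 for the covered length of the whole lists, so most of the difference was shared by the whole lists. When the 4 lists were cut to equal length by −log10 q, a setting chosen after seeing the data, 3 members (SMC3, STAG2 and WAPL) still had at most 50% coverage, against 29.6% of genes. The median ratio was then 0.491, against 0.479 over genes. At RAD21 the hairpin and shNTC libraries then overlapped, with 1.74 kb in shH2 and 2.06 kb in shH3, against 1.88 and 1.35 kb with shNTC. With only regions of −log10 q of at least 10 in every list, 1 member had at most 50% coverage, against 45.5% of genes, and the median ratio of the members was 0.535, above the 0.350 over genes. What part unequal depth plays in the lower coverage was not tested.

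**Figure D4:**
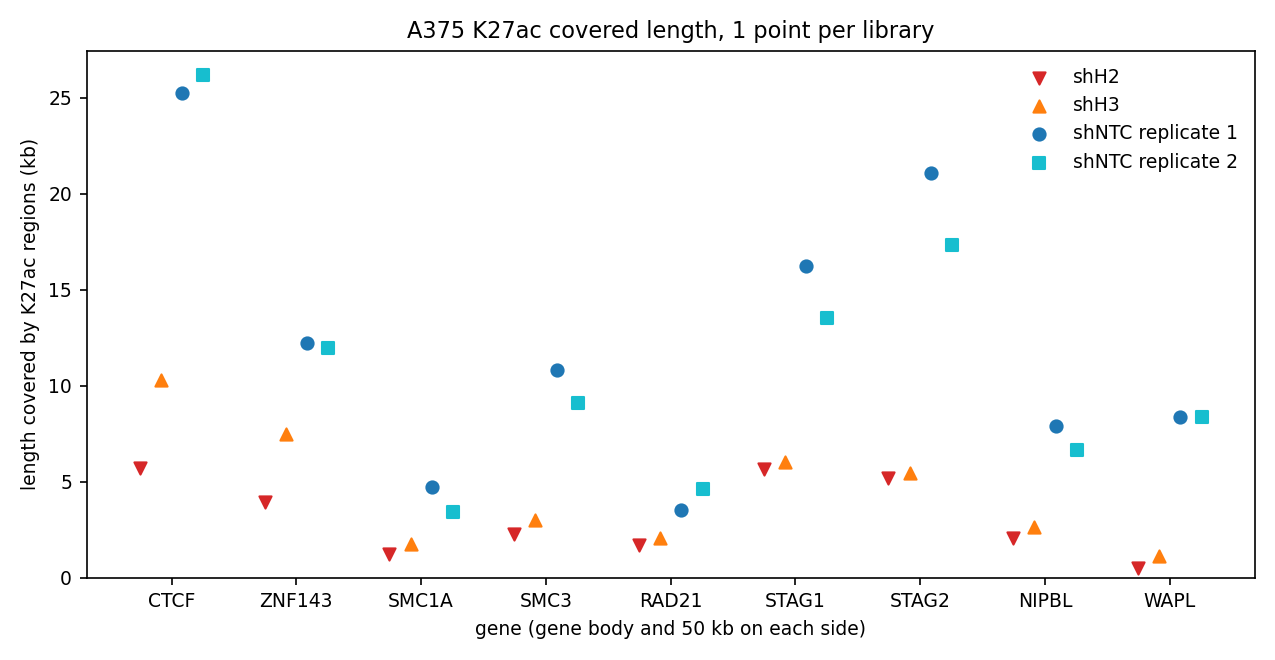
Length covered by K27ac regions (kb, y axis) in the window of each of the 9 genes in A375, with 1 point per library. The shH2 and shH3 points lie under both shNTC points at every gene, with the lowest ratio at WAPL (0.501 and 1.12 kb against 8.37 and 8.39 kb).

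Taken region by region, 85 K27ac regions of the windows were listed in both shNTC replicates, and 50 of them, termed lost, in neither hairpin library (58.8%, 48.2 to 68.7%), against 37.1% of all 65337 such regions. NIPBL lost 6 of 7, WAPL 9 of 10, CTCF 11 of 19, STAG1 6 of 10, STAG2 6 of 12, SMC3 4 of 7, SMC1A 3 of 5, RAD21 2 of 4 and ZNF143 3 of 11. In the other direction, 0 of 27 regions listed in both hairpin libraries were missing from both replicates, against 1.85% of such regions. With lists of equal length 7 of 36 regions were lost (19.4%), against 16.4% of all, and with a −log10 q of at least 10 throughout 4 of 26 (15.4%), against 32.2%, so the members' share was near the background with equal lists and under it with the strict limit.

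The lost regions were the weaker ones. Their −log10 q, the higher of both replicates, ran between 2.50 and 14.0, with a median of 5.52 for the 50 lost and 28.4 for the 35 kept. In the stronger 50% of all such regions, with a −log10 q from 9.90 upward, members lost 5 of 35 (14.3%, 6.26 to 29.4%), against 9.92%. In the weaker 50% they lost 45 of 50 (90.0%, 78.6 to 95.7%), against 64.2%. ATAC regions of A375-GFP overlapped 16 of the 50 lost and 29 of the 35 kept regions, and over all regions these shares were 42.5% and 91.7%.

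The starts of the 9 genes were acetylated throughout. All 9 had K27ac within 1 kb in shH2 (40.4% of all gene starts), in shH3 (51.5%) and in both shNTC replicates (57.8 and 56.4%). Among starts open in all 4 lines, as all 9 were, these shares were 65.0% in shH2, 81.4% in shH3, and 88.0 and 86.4% with shNTC. By comparison, 9.15% of the 8766 starts acetylated in both replicates had it in neither hairpin library. At WAPL the region chr10:86520806-86521764 next to the start was kept, as the only one of 10, and chr10:86522015-86522459, 0.222 kb before it, was lost with all 7 regions inside the rest of the gene. At NIPBL the start region chr5:36874390-36877999 was likewise the only one kept, and the 6 lost regions lay inside the gene. At SMC1A the start region was kept and chrX:53423043-53423876, 0.314 kb before it and in RIBC1, was lost. Within 1 kb of any gene start 4 of 18 member regions were lost (22.2%, 9.00 to 45.2%, against 12.8%), and farther away 46 of 67 (68.7%, 56.8 to 78.5%, against 41.0%).

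ZNF143 kept most of its regions, 8 of 11, and 6 of these 8 formed a run that began 36.5 to 49.0 kb beyond its end, toward and into WEE1. In shH2 alone ZNF143 lacked 6 of 11 regions and in shH3 alone 3, so the hairpins differed most there. Of the 7 member regions that overlapped HOXD13-HA, 3 were lost (STAG1 at chr3:136473949-136475037 and chr3:136731328-136731891, and STAG2 at chrX:123988451-123989199), and of the 78 without HOXD13-HA 47 were lost. The counts with HOXD13-HA are too few to set apart (42.9%, 15.8 to 75.0%, against 60.3%, 49.2 to 70.4%). They take a whole K27ac region as kept when any part of it overlaps a hairpin region. In STAG2 chrX:124021236-124026110 was kept in this way. No hairpin K27ac region overlapped the HOXD13-HA regions inside it, chrX:124021505-124021723 and chrX:124025266-124025434.

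**Figure D5:**
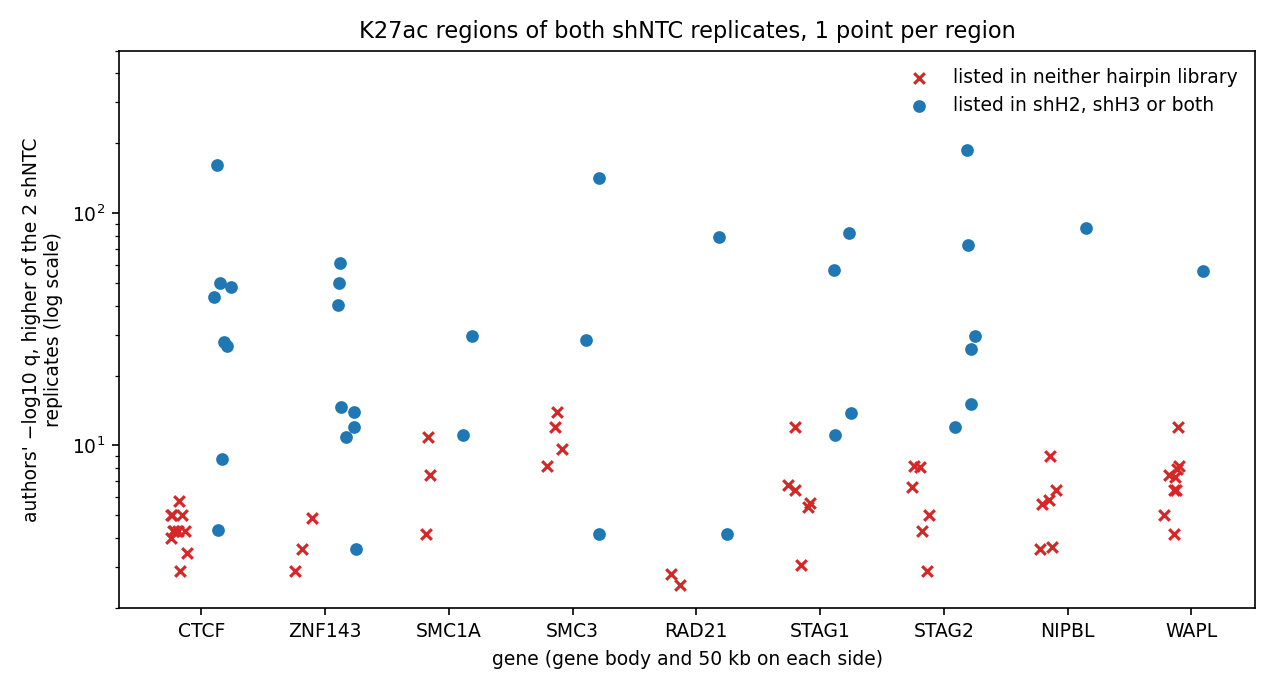
Authors' −log10 q (y axis, log scale, the higher of both shNTC replicates) of the 85 K27ac regions listed in both shNTC replicates, by gene, with 1 point per region. Crosses mark the 50 regions listed in neither hairpin library, all at or under 14.0, and circles the 35 others.

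Across the 4 lines, ATAC regions of the windows joined into 183 places, of which 28 were open in all 4 lines (15.3%, 10.8 to 21.2%), against 14.7%, and 103 in 1 line (56.3%, 49.0 to 63.3%, against 51.9%), 63 of them in the longest list, SKMEL-147. Of the 28 shared places 14 lay within 1 kb of a gene start (32.6 to 67.4%), against 23.2% of all places open in all 4 lines. The windows were drawn around genes and 10 of the 14 lay at the members' own starts, so these shares are not like for like. The CTCF window held 7 of the 28 and RAD21 4. For K27ac the windows held 211 places, 8 of them shared by all 4 lines (3.79%, 1.93 to 7.30%), against 2.89%, and 171 in 1 line (81.0%, 75.2 to 85.8%, against 74.9%), 132 of these in A375-GFP. Of the 8 shared places 5 lay within 1 kb of a gene start (30.6 to 86.3%), against 27.9% of all K27ac places in 4 lines. All 5 lay at the members' own starts, so these shares are not like for like either. The 8 lay at the starts of SMC3, RAD21, STAG1, STAG2 and ZNF143, at 17.4 kb inside STAG1 (chr3:136733262-136736774) and at 2 places in the stretch beyond ZNF143. STAG2 is counted there because its joined region (chrX:123958395-123963605) runs past 1 kb on either side of the start, although SKMEL-147 listed none within 1 kb. The A375-GFP K27ac list, with 139985 regions, was the longest of the 4 lines, against 42115 to 58855 in the others. The share of places in A375-GFP alone was not counted over all K27ac places. In the CTCF window 48 of 57 K27ac places were in A375-GFP alone. The A375-GFP list held 30.6 regions per 100 kb there, at least as many regions as in 97.5% of gene windows.

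Other genes of loop extrusion and insulation, 22 in all, had HOXD13-HA regions near 15, against the 60.2% of all genes. Of 11 condensin and SMC5/6 genes, which build the other ring complexes, 10 had such a region, NCAPH2 being the exception. The highest folds stood near ADNP (11.1), SMC6 (10.5), CTCFL (10.3), NCAPD3 (7.88) and NSMCE2 (7.54). Only the NSMCE2 region overlapped its gene. The others lay outside, by 21558 bp at ADNP, 47255 bp at SMC6, 4571 bp at CTCFL and 40923 bp at NCAPD3. None of the 22 or 11 had a HOXD13-HA region within 1 kb of the start, among the 19 and 9 starts with a known strand. Such a region lay at 3.06% of all gene starts, so these starts are too few to set apart from that share. Both hairpin libraries covered at most 50% of each shNTC replicate at 13 of the 22 and 7 of the 11, with median ratios of 0.366 and 0.357, against 50.8% of genes and a median of 0.380.

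Over the 15 lists the number of regions per 100 kb, on a log2(1 + value) scale, was compared between genes as a Euclidean distance. The genes nearest to the mean of the 9 were GDAP2 (0.992), TTC1 (1.14), ARIH1 (1.19), KIF24 (1.20) and FSD1L (1.20), against a median distance of 3.89 over all genes. The members lay between 1.82 (STAG2) and 3.72 (CTCF) from their own mean. The closest pair was SMC1A and NIPBL (2.36), followed by STAG1 and STAG2 (2.41), and the farthest was CTCF and NIPBL (6.00).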

How the data were processed

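All values came from the 15 region lists, described by sample labels. Reads were processed with MACS2, Bowtie2, Trim Galore, deepTools and SAMtools on hg38, per the submitters' processing notes; versions, settings and control libraries are not given in the sources used here. Each deposited list gives the authors' fold enrichment (a ratio) at the summit, −log10 p, −log10 q, a score and a summit offset, called per library. The remaining 6 samples (IgG libraries and the A375-GFP HA library) were not analysed here. The labels do not say which libraries were ChIP-seq and which CUT&Tag, their extraction protocol describes RNA, and the 501mel ATAC region names contain siNTC. Of the lists, those of shNTC, shH2, shH3 and A375-GFP ATAC also held regions on alternative sequences; autosomes and X were kept. The growth protocol gives 72 h with or without 1 µg/ml doxycycline.

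Genes came from the RefSeq table of GRCh38.p14, without exons, so exonic and intronic regions were not told apart. Strand came from the promoter table, which covered 15814 starts; RAD21, which is absent from it, was placed on the minus strand from general knowledge. An overlap of 1 bp or more made regions shared. Covered length was counted inside windows. Classes of −log10 q were 10 equal groups of all regions in both shNTC replicates. The members and gene lists were chosen with earlier results of these data known. By rule, all members, the strongest HOXD13-HA region of each, start regions, the 5 highest folds among related genes and the 5 nearest genes were named; regions outside this rule were chosen after their values were seen. Counting and overlap steps were tested on simulated data. Python 3.11.15, numpy 2.4.6, pandas 2.3.3, scipy 1.17.1 and matplotlib 3.10.9 were used.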

Additional observations from a re-analysis of the deposited data

How the results depend on the processing

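Flanks of 10 kb and 100 kb, an overlap of at least 50% of the shorter region and joined HOXD13-HA regions changed few results; 10 kb left 4 members with a HOXD13-HA region in place of 7, and 100 kb gave 1 gained region in place of 0. A −log10 q of at least 10 lowered the HOXD13-HA regions to 7 and the lost K27ac regions to 15.4% (all regions 32.2%). It lowered the ATAC regions open in all 4 lines to 9.45% (all regions 9.08%). Members with at most 50% K27ac coverage fell to 1 (45.5% of genes). Lists of equal length gave 19.4% lost (all regions 16.4%), 1 gained region of 26 (all regions 6.50%) and 3 members with at most 50% coverage (29.6% of genes). Regions in all 4 lines then came to 26.3% for ATAC (all regions 18.5%) and 9.72% for K27ac (all regions 3.80%). With shH3 alone 2 of 41 regions were gained (all regions 8.20%), and with shH2 alone 0 of 36 (all regions 4.39%). Leaving out either shNTC replicate gave 66.1 to 66.4% lost (all regions 45.5 to 48.4%) and 0 gained. It also gave 7 members with at most 50% coverage (53.2 to 59.0% of genes). The cause of these shifts was not tested. CTCF sites in both lines moved between 45.9 and 55.1% over 5 alternatives. No paired analysis was possible because shH2 and shH3 have 1 library each. Unknown depth limits every statement that a region is missing from a list.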
